A study of Mus musculus with 8 samples.

Results

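The genes described here carry out DNA replication and cell division. They are 41 symbols named as a set for these libraries: 21 mitotic genes, 17 S phase genes and 3 D-type cyclins. A gene belonged to the set when its name in the deposited expression table equalled a listed symbol. That held for 40 of the 41, out of 37447 genes in the table, and the replication licensing factor Cdt1 is not analysed here.

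The study sequenced RNA from microglia, the macrophages that live in nervous tissue, sorted from the optic nerve of C57BL/6 mice at 3 months of age. The 4 FF libraries came from mice whose Nf1 alleles are flanked by loxP sites (Nf1 flox/flox), with no Cre. The 4 FFC libraries came from mice with the same floxed alleles and Cre driven by the GFAP promoter (Nf1 flox/flox; GFAP-Cre), which is active in astroglial cells and their precursors and not, by design, in microglia. Each genotype had 2 females and 2 males, given per the labels as biological replicates numbered 1 to 4. The sample titles name November for FF 1, FF 2, FF 3 and FFC 1, and December for the other libraries. Month and genotype are thus unevenly crossed and cannot be fully told apart, and what the month marks is not stated. The sources used here do not give whether a library came from 1 mouse or several, so a p-value below measures the spread between these libraries only. RNA was amplified from small amounts before sequencing. Values are FPKM, read fragments per transcript length and sequencing depth, which can be compared between genes. Differences are on the log2(FPKM + 1) scale, which understates the change of low genes.

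As background, a cell enters the cycle when growth signals raise D-type cyclins. With their kinases these inactivate the retinoblastoma protein and free E2F factors, which drive genes for origin licensing, the MCM helicase and nucleotide supply in S phase. Later, cyclin B with Cdk1 starts mitosis, and kinetochore, spindle and checkpoint proteins separate the chromosomes. Promoters of S phase genes often hold E2F sites. Those of mitotic genes often hold CCAAT boxes, bound by NF-Y, and the cell cycle homology region (CHR), bound by the DREAM and MuvB complexes. Microglia in the adult nervous system divide rarely and renew themselves slowly.

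The promoter sequences below show these elements for an MCM gene pair and for the mitotic kinase and its cyclin partner. Each is the 160 bases before the gene start in RefSeq on the build GRCm38.p6, 5′ to 3′ on the gene's strand. Capitals mark matches to E2F (TTTCGCGC, TTTGGCGC or TTTCCCGC), CHR (TTTGAA or TTCGAA) or the CCAAT box (CCAAT), each searched on both strands, with overlapping E2F matches run together. Mcm5 lies at chr8:75109349-75109508 (plus strand), Mcm6 at chr1:128359706-128359865 (minus), Cdk1 at chr10:69352913-69353072 (minus) and Ccnb2 at chr9:70421555-70421714 (minus).
Mcm5: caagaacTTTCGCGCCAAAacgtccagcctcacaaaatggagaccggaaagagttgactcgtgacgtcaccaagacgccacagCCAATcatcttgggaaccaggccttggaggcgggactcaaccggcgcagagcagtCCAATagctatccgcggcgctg
Mcm6: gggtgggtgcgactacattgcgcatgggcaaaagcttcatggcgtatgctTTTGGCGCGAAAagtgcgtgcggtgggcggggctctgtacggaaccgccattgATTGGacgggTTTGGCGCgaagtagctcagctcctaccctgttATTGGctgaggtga
Cdk1: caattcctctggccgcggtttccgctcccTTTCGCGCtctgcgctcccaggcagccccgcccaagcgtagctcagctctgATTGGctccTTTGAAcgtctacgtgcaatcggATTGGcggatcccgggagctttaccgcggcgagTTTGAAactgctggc
Ccnb2: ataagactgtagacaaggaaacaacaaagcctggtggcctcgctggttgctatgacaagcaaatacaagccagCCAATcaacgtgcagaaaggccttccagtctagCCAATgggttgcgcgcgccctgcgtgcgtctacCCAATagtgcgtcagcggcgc

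RefSeq held a promoter for 33 of the 41 symbols, and each was searched over the 250 bases before the start. An E2F match was found in 4 of 16 S phase promoters (25.0%: Mcm5, Mcm6, Mcm7 and Cdc6) and in 1 of 17 mitotic promoters (5.88%: Cdk1), against 1.53% of all 32851 promoters. A CHR match was found in 8 of 17 mitotic promoters (47.1%), in 3 of 16 S phase promoters (18.8%) and in 17.1% of all. A CCAAT box was found in 15 of 17 mitotic promoters (88.2%), in 10 of 16 S phase promoters (62.5%) and in 33.8% of all. Mcm6 holds 3 E2F matches in the stretch shown and no CHR, while Cdk1 holds both kinds of element. The CHR of Ccnb2 begins 167 bases before the start, outside the stretch shown. These matches describe the letters of the windows, and no binding was measured in this study.

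The floxed gene, Nf1, which encodes the Ras inhibitor neurofibromin, measured 25.5 to 65.2 FPKM in FF and 47.7 to 98.3 in FFC, which is no check of the labels because the Cre is not aimed at microglia. FF 2 and FF 4 stood apart from the other libraries. Their median Spearman correlations with the other libraries were 0.398 and 0.464, against 0.507 to 0.597. Odorant and vomeronasal receptor genes made up 4.56% and 3.60% of their summed FPKM, against 0.734% to 1.86% elsewhere. Differences between the genotypes and between the sexes were therefore also computed without these 2, a choice made with earlier results of these data known. The exact permutation tests and the comparison of the genotype difference between the sexes used all 8 libraries only. The sorted cells carried the markers of their label. Csf1r, the receptor that keeps microglia alive, lay between 379 and 1062 FPKM, and all 10 microglia markers had a mean above 1 FPKM. All 6 monocyte and all 7 endothelial markers also reached that mean, so it does not set cell types apart. Summed FPKM of the microglia markers was 1564 to 4530 in FF and 2790 to 5266 in FFC, and read depth per library is unknown.

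The cell cycle genes were expressed at low levels next to these markers. Over the 40 measured genes the median of the mean FPKM was 4.25, and the means ran from 0.151 (Kif20a, a kinesin of cytokinesis) to 41.7 (Pcna). Between 24 and 28 of the 40 exceeded 1 FPKM in a given library. Averages of at least 1 FPKM, the condition for testing, were reached by 35 of the 40, and 11 of these exceeded 1 FPKM in all 8 libraries (31.4%, against 30.9% of all 17753 genes that met the condition): Mki67, Ccna2, Ccnb1, Cenpa and Cenpf of the mitotic genes, Mcm3, Mcm7, Pcna, Rrm1 and Tk1 of the S phase genes, and Ccnd1. The other 5 (Plk1, Cenpe, Kif20a, Nusap1 and E2f1) had a mean under 1 FPKM and were not tested. Genes at 0 in a library are named where they occur, since such a value can be a failed estimate.

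**Figure D1:**
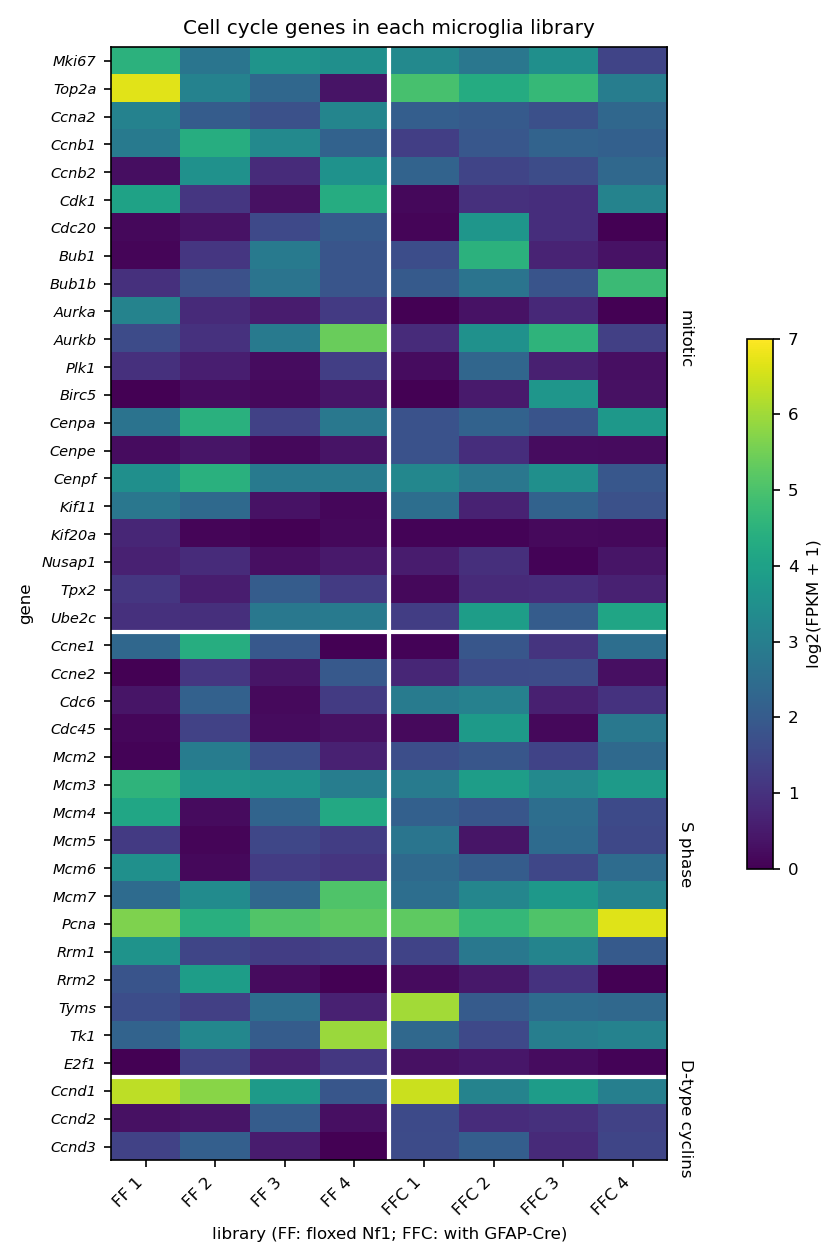
Heat map of log2(FPKM + 1) for the 40 measured cell cycle genes (rows) in the 4 FF and 4 FFC libraries (columns), with colour from 0 to 7. White lines separate the mitotic genes, the S phase genes, the D-type cyclins and the genotypes; high values are scattered over both genotypes, and Pcna, Mcm3 and Mki67 are among the few rows with signal in every library.

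Between the genotypes no cell cycle gene differed by more than the spread between libraries allowed to be called. In limma on all 17753 tested genes, 0 of the 35 tested members had an adjusted p under 0.05, against 0.0% of all tested genes, and the smallest adjusted p of a member was 0.759. At an unadjusted p under 0.05 there were again 0 of 35, against 6.46% of all tested genes (4.52% higher and 1.94% lower in FFC). In all 40 members the FF and FFC values overlapped, whereas 3.05% of all tested genes had every FFC library above every FF library and 1.29% had every one below. The signs were evenly split, with 20 members higher and 20 lower in FFC and a median difference of 0.00. Over all tested genes 56.7% were higher in FFC and the median difference was 0.19, which upper-quartile scaling of the libraries moved to 0.03. Standard errors of the members' differences ran from 0.645 to 1.13, so the intervals of single members reached more than 1 to either side of the estimate. Single libraries carried most of these values: with 1 library left out the difference turned its sign in 11 of the 35 tested members, and in 34 of them, Ccnb1 being the exception, it turned or moved by more than 1.5 times for at least 1 library.

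**Figure D2:**
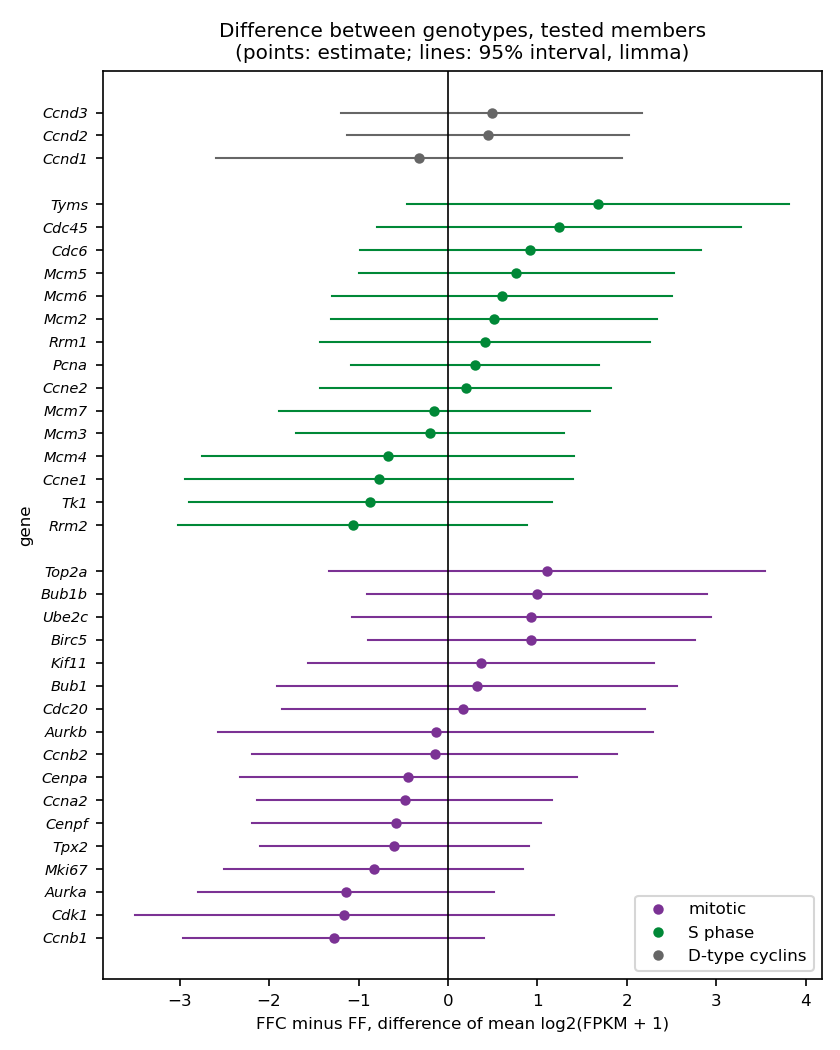
Difference of the mean log2(FPKM + 1), FFC minus FF, for the 35 tested members, with limma's 95% intervals. Points show the estimates, from -1.28 for Ccnb1 to 1.68 for Tyms, and every interval includes 0.

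Among the genes that build the replication fork, Pcna, the sliding clamp that holds DNA polymerases on the template (mm9 chr2:132074898-132079050), was the most abundant member. It measured 49.0, 20.5, 33.1 and 37.4 FPKM in FF libraries 1 to 4, and 37.4, 24.1, 32.8 and 99.3 in FFC libraries 1 to 4. FFC 4 was the highest and the other 7 libraries lay between 20.5 and 49.0. The means were 35.0 ± 11.7 in FF and 48.4 ± 34.4 in FFC (SD, n = 4 each), a log2 difference of 0.30 with a 95% interval from -1.09 to 1.69 (limma, adjusted p = 0.906), and without FFC 4 it was -0.11.

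The MCM2-7 complex, the ring of 6 subunits that unwinds DNA, holds its subunits in equal parts, while their transcripts were far from equal in single libraries. In FF 1 they ran from 0.0478 FPKM for Mcm2 to 22.4 for Mcm3, and in FF 2 from 0.0732 for Mcm5 to 11.7 for Mcm3. The ratio of the highest to the lowest subunit was 468, 160, 8.01 and 56.9 in the FF libraries, and 2.96, 43.3, 7.40 and 7.003 in the FFC libraries, so the genotypes overlapped. Mcm3 or Mcm7 was the highest subunit in every library, while the lowest was Mcm2, Mcm5 or Mcm6.

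Mcm3 (mm9 chr1:20793055-20810359) measured 22.4, 11.7, 10.8 and 6.82 FPKM in the FF libraries, and 6.53, 13.9, 8.87 and 13.1 in the FFC libraries. It was the steadiest member, with a 3.43-fold range over the 8 libraries, and the log2 difference was -0.21 (interval -1.70 to 1.29). Mcm7 (mm9 chr5:138605811-138613650) measured 4.40, 9.48, 4.02 and 32.5 FPKM in the FF libraries, and 4.80, 8.26, 12.3 and 7.73 in the FFC libraries, highest in FF 4. Its difference was -0.15 with all libraries and 0.77 without FF 2 and FF 4 (limma, adjusted p = 0.970 and 0.832). The gene shares 421 bases with Ap4m1 and 64 with Cops6, and the sources used here do not state whether counting used strand.

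Mcm4 (mm9 chr16:15623990-15637493) measured 16.5, 0.157, 3.78 and 17.7 FPKM in the FF libraries, and 3.46, 2.67, 4.79 and 1.98 in the FFC libraries. The FF libraries spanned the FFC range on both sides, and the difference was -0.67 (interval -2.75 to 1.41). The other 3 subunits had log2 differences of 0.52 (Mcm2), 0.76 (Mcm5) and 0.61 (Mcm6, -0.27 without FF 2 and FF 4). The helicase loader Cdc6 and the helicase activator Cdc45 had differences of 0.92 and 1.24. Without FFC 2 the Cdc45 difference was 0.54. Cdc45 exceeded 1 FPKM in 3 libraries only: FF 2 (1.60), FFC 2 (13.2) and FFC 4 (5.94).

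Among the genes of nucleotide supply, thymidylate synthase, Tyms, which makes dTMP (mm9 chr5:30384742-30400157), measured 2.12, 1.49, 4.82 and 0.570 FPKM in the FF libraries, and 64.9, 3.03, 4.40 and 4.18 in the FFC libraries. FFC 1 alone held 75.9% of the gene's summed FPKM. The difference of 1.68 ± 0.99 (limma estimate ± SE) was the largest of any member with all libraries, with an unadjusted p of 0.114 and an adjusted p of 0.759. It was 0.74 without FFC 1 and 1.12 without FF 2 and FF 4.

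Thymidine kinase, Tk1, the salvage route to dTMP (mm9 chr11:117676840-117687406), measured 3.73, 8.48, 3.13 and 60.7 FPKM in the FF libraries, and 4.12, 1.90, 7.04 and 7.67 in the FFC libraries. FF 4 held 62.7% of the sum, and the other libraries overlapped. The difference was -0.87 with all libraries and 0.36 without FF 2 and FF 4 (limma, adjusted p = 0.794 and 0.925), and -0.0081 without FF 4. Tk1 shares 169 bases with Afmid, which lay between 0.0474 and 0.286 FPKM in FF and between 11.7 and 29.1 in FFC, and whose genotypes, unlike those of Tk1, did not overlap. It also lies wholly inside RP23-268N22.1, which was at 2.57 FPKM in FF 2 and near 0 elsewhere.

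Ribonucleotide reductase, which turns ribonucleotides into deoxyribonucleotides, needs both Rrm1 and Rrm2. Rrm1 (mm9 chr7:109590209-109618285) measured 11.0, 1.76, 1.43 and 1.57 FPKM in the FF libraries, and 1.65, 6.00, 7.90 and 2.92 in the FFC libraries. Its log2 difference was 0.41 (interval -1.43 to 2.25), and -0.099 without FF 2 and FF 4. FF 1 was the highest, followed by FFC 3 and FFC 2. Rrm2, the regulated subunit, lay above 1 FPKM in FF 1 (2.54), FF 2 (13.8) and FFC 3 (1.05) only. Its difference was -1.06, the lowest of the S phase genes with all libraries, and -0.26 without FF 2, which held 76.3% of its summed FPKM.

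Cyclin E opens S phase with Cdk2. Ccne1 (mm9 chr7:38883003-38892553) measured 4.06, 19.6 and 2.78 FPKM in FF libraries 1 to 3, was listed at 0 in FF 4, and measured 0.0521, 2.69, 1.09 and 4.74 in the FFC libraries. The genotypes overlapped and the log2 difference was -0.77 (interval -2.94 to 1.40), and -0.034 without FF 2. Ccne2 was listed at 0 in FF 1, reached 2.91 FPKM in FF 4 and had a difference of 0.20, and it shares 5622 bases with Ints8 (6.16 to 44.6 FPKM). The transcription factor E2f1 had a mean of 0.519 FPKM and exceeded 1 FPKM in FF 2 and FF 4 only (1.59 and 1.19).

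Among the mitotic genes, Top2a, the topoisomerase that untangles sister chromatids (mm9 chr11:98854257-98885503), was the most abundant on average. It measured 102, 7.53, 4.10 and 0.292 FPKM in the FF libraries, and 30.5, 18.8, 24.8 and 6.81 in the FFC libraries. The FF libraries held both the highest and the lowest value of the 8. The log2 difference was 1.11 (interval -1.33 to 3.55; limma, adjusted p = 0.780) and -0.29 without FF 2 and FF 4.

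Mki67, whose protein Ki-67 coats mitotic chromosomes and is the usual marker of cycling cells (mm9 chr7:142881471-142908062), measured 21.4, 5.62, 11.2 and 10.1 FPKM in the FF libraries, and 8.82, 5.80, 10.2 and 1.70 in the FFC libraries. Means were 12.1 ± 6.66 in FF and 6.63 ± 3.76 in FFC (SD, n = 4 each). FF 1 and, by a small margin, FF 3 lay above every FFC library, and the log2 difference was -0.83 (interval -2.50 to 0.84; limma, adjusted p = 0.765). Mki67 had a lower mean in FFC in all 21 other settings tried and passed the test in none, with differences from -1.30 without FF 2 and FF 4 to -0.39 without FFC 4 and -0.53 without FF 1. Several of these settings, among them robust variances and sex as a covariate, leave the difference unchanged by construction.

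The cyclin partners of Cdk1 differed between themselves. Ccnb1 (mm9 chr13:101548605-101556525) measured 6.22, 19.5, 8.82 and 3.61 FPKM in the FF libraries, and 1.46, 2.77, 3.69 and 3.45 in the FFC libraries. Only FF 4 lay inside the FFC range, and FFC 3 was the only FFC library above any FF library. This gene had the lowest difference of the members, -1.28 ± 0.78 (limma estimate ± SE, interval -2.96 to 0.40), with an unadjusted p of 0.125 and an adjusted p of 0.759. The exact two-sided permutation test of the 4 libraries against 4 gave p = 0.0571, where 0.0286 is the smallest it can give, before any correction for the 40 members. Ccnb2 had a difference of -0.15, and 1.36 without FF 2 and FF 4 (limma, adjusted p = 0.797). Ccna2, whose product acts in S phase and G2, lay between 2.27 and 8.07 FPKM with a difference of -0.48.

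Cdk1, the kinase that starts mitosis (mm9 chr10:68799383-68815686), measured 15.4, 1.17, 0.232 and 19.0 FPKM in the FF libraries, and 0.113, 0.949, 0.880 and 7.72 in the FFC libraries. Its 3 highest libraries, FF 1, FF 4 and FFC 4, were all from females, and the fourth female library, FFC 1, was the lowest of the 8. The genotype difference was -1.16 (interval -3.49 to 1.18; limma, adjusted p = 0.765).

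The chromosomal passenger kinase Aurkb (mm9 chr11:68859149-68865166) measured 2.02, 0.984, 6.20 and 41.1 FPKM in the FF libraries, and 0.812, 10.7, 22.4 and 1.50 in the FFC libraries, highest in FF 4. Its partner Birc5 (survivin) exceeded 1 FPKM in FFC 3 alone, at 11.8, and was listed at 0 in FF 1. Aurka, the centrosomal kinase, was listed at 0 in FFC 4, reached 7.74 FPKM in FF 1 and stayed under 1 in all FFC libraries, with a difference of -1.14 (limma, adjusted p = 0.759; exact permutation p = 0.0571), and -0.57 without FF 1.

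Centromere genes included Cenpa, the histone H3 variant that marks centromeres (mm9 chr5:30969150-30977200), with 5.34, 20.9, 1.56 and 6.02 FPKM in the FF libraries, and 2.42, 3.63, 2.52 and 12.2 in the FFC libraries. Cenpf, a kinetochore protein of G2 and M phase (mm9 chr1:191464478-191511965), measured 10.1, 20.8, 6.22 and 6.56 FPKM in the FF libraries, and 8.39, 5.86, 10.2 and 2.71 in the FFC libraries. Both were highest in FF 2. Their log2 differences were -0.44 and -0.58, the former 0.37 without FF 2 and FF 4.

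Of the checkpoint and anaphase genes, Bub1b, the BubR1 kinase of the spindle checkpoint (mm9 chr2:118423947-118467328), measured 0.955, 2.32, 5.52 and 2.62 FPKM in the FF libraries, and 2.97, 5.43, 2.52 and 26.1 in the FFC libraries. Ube2c, the ubiquitin-conjugating enzyme of the anaphase-promoting complex (mm9 chr2:164595398-164604322), measured 0.967, 0.911, 6.01 and 6.36 FPKM in the FF libraries, and 1.42, 14.0, 3.08 and 16.3 in the FFC libraries. Each was highest in FFC 4, with differences of 1.00 and 0.93 (0.35 and 0.50 without FFC 4) and overlapping genotypes. The remaining tested mitotic genes (Cdc20, listed at 0 in FFC 4, Bub1, Kif11 and Tpx2) had differences between -0.60 and 0.37.

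The D-type cyclins, which link growth signals to the cycle, were led by Ccnd1 (mm9 chr7:152115836-152125774). It measured 77.5, 53.5, 13.0 and 2.67 FPKM in the FF libraries, and 85.3, 7.77, 13.6 and 7.09 in the FFC libraries. In each genotype library 1 was the highest, and the difference was -0.33 (interval -2.59 to 1.94; limma, adjusted p = 0.943). Its sign turned under 5 of the 21 other settings, with 1.30 when the month in the sample titles was a covariate. Ccnd1 shares 818 bases with Oraov1, which reached 20.6 FPKM in FF 2.

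Ccnd2 (mm9 chr6:127075797-127101066) measured 0.249, 0.327, 3.13 and 0.217 FPKM in the FF libraries, and 1.99, 0.857, 0.963 and 1.62 in the FFC libraries. FF 3 was the highest of the 8 and the other 3 FF libraries lay below every FFC library. Ccnd3 (mm9 chr17:47642000-47736632) measured 1.59, 3.33 and 0.459 FPKM in FF libraries 1 to 3, was listed at 0 in FF 4, and measured 2.01, 3.24, 0.791 and 1.77 in the FFC libraries. The differences were 0.45 and 0.49 (limma, adjusted p = 0.874 and 0.869), and 0.026 and 0.54 without FF 2 and FF 4. A pseudogene named as a copy, Ccnd3-ps, reached 15.9 FPKM in FFC 4.

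**Figure D3:**
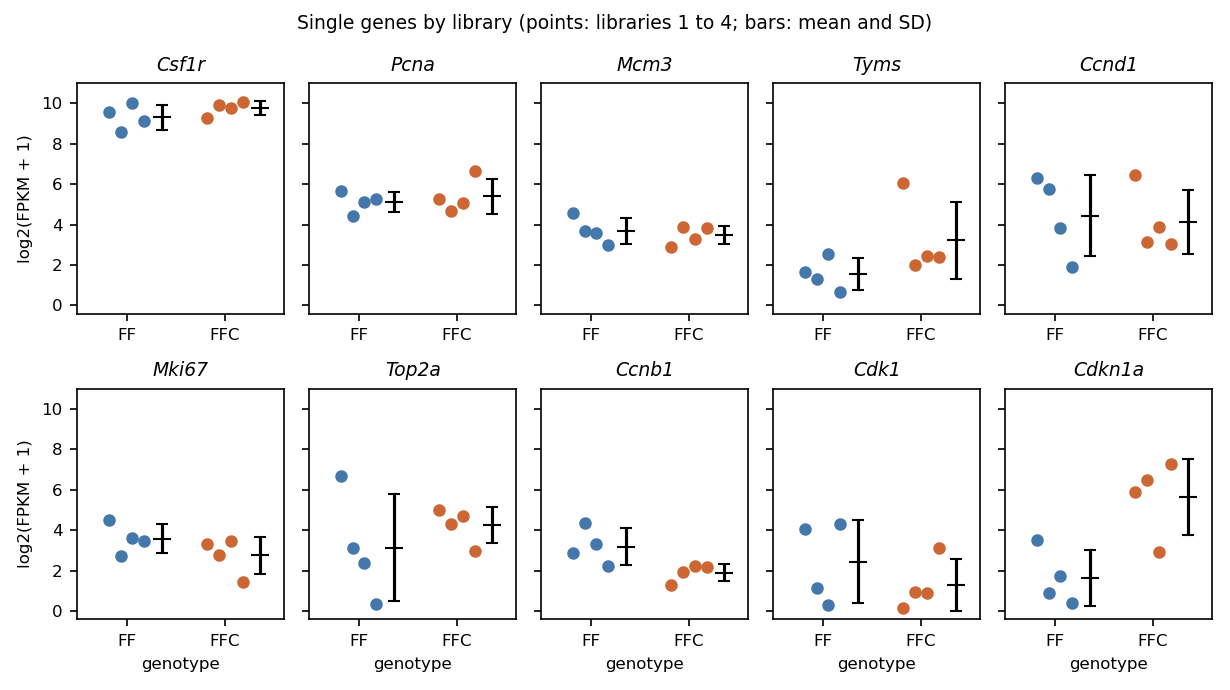
log2(FPKM + 1) of 10 genes in each library, FF (blue) and FFC (orange), points from left to right being libraries 1 to 4, with the mean and SD. Csf1r, the microglia marker, lay between 379 and 1062 FPKM, while Tyms, Top2a, Cdk1 and Ccnd1 are spread over several log2 units within a genotype; Cdkn1a is the cell cycle inhibitor described further on.

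S phase and mitotic genes were then set against each other. Of the 16 measured S phase genes 9 were higher and 7 lower in FFC (median difference 0.25), and of the 21 mitotic genes 9 were higher and 12 lower (median -0.14). Of the 3 D-type cyclins 2 were higher (median 0.45). The median over all tested genes was 0.19. Without FF 2 and FF 4 the mitotic median was 0.22, with 12 genes higher and 9 lower, the S phase median 0.20 and the D-type cyclin median 0.026, against 0.070 over all tested genes. Over genes averaging 5 FPKM or more the S phase median was -0.18 and the mitotic median -0.44, against 0.38 over all genes tested there. Ccnd1, the only D-type cyclin left, had a difference of -0.33. This filter left 6 S phase and 9 mitotic genes. It read the mean of all 8 libraries, so a gene high in 1 genotype could pass through that genotype alone. Ccnb1 averaged 9.53 FPKM in FF and 2.84 in FFC, and Bub1b 2.85 and 9.26. The S phase, mitotic and D-type cyclin lists were given no test.

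The mean log2(FPKM + 1) of the S phase genes was 2.11, 2.20, 1.69 and 2.07 in the FF libraries, and 2.12, 2.22, 2.08 and 2.23 in the FFC libraries. That of the mitotic genes was 1.95, 1.75, 1.57 and 2.00 in the FF libraries, and 1.44, 2.06, 1.84 and 1.63 in the FFC libraries. FF 3 was low for both groups of genes, and FFC 1 was lowest for the mitotic genes only. In every library the S phase mean was the higher one.

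Their gap, S phase minus mitotic, was 0.16, 0.45, 0.12 and 0.07 in the FF libraries, and 0.68, 0.16, 0.24 and 0.60 in the FFC libraries. The means were 0.20 ± 0.17 and 0.42 ± 0.26 (SD, n = 4 each), a difference of 0.22 between genotypes that is about the size of the pooled SD of 0.22. The 2 high values, FFC 1 and FFC 4, were both from females: the genotype difference of the gap was 0.53 in females and -0.08 in males, with 2 libraries on each side. It was 0.28 without FF 2 and FF 4. Split by the month in the titles it was 0.44 in November and 0.27 in December, each month having 1 library on one side.

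**Figure D4:**
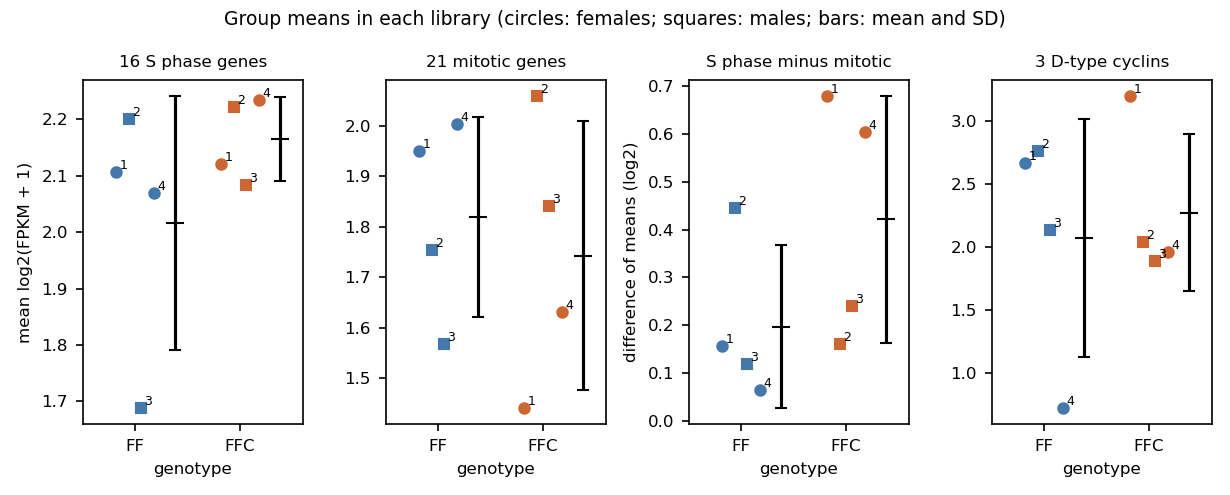
Mean log2(FPKM + 1) of 16 S phase genes, 21 mitotic genes and 3 D-type cyclins in each library, and the S phase mean minus the mitotic mean, by genotype (circles females, squares males, numbers the replicates, bars the mean and SD). The vertical axes do not start at 0 and differ between panels; FF and FFC overlap in each panel, and the gap is largest in FFC 1 and FFC 4.

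How far genes of 1 phase were high in the same libraries was described by rank correlations. Over the 8 libraries the median Spearman correlation was 0.00 for the 136 pairs of tested mitotic genes and -0.05 for the 105 pairs of S phase genes. For the 255 pairs of a mitotic with an S phase gene it was 0.00, and for all pairs of tested genes 0.02. Correlations above 0.5 made up 14.7% of the mitotic pairs, 10.5% of the S phase pairs and 12.1% of all pairs. The pairs share the same 8 libraries, and no p-value is given.

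Members peaked in all 8 libraries, but unevenly, and the matching counts over all tested genes are not given here. The highest value of a member fell in FF 1, FF 2 or FF 4 for 8 members each, in FFC 2 for 6, FFC 1 for 4, FFC 4 for 3, FF 3 for 2 and FFC 3 for 1. A single library held a median of 37.2% of a tested member's summed FPKM, against 40.9% for all tested genes, where an even spread would give each library the same share. The SD within a genotype had a median of 1.10 on the log2 scale, against 1.23 for all tested genes. A value of 0 in at least 1 library occurred in 6 of 35 tested members (17.1%), against 37.1% of all tested genes. Summed over the 40 members, FPKM ranged from 153 in FF 3 to 397 in FF 1.

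Between the sexes, with genotype in the limma model, 0 of 35 tested members had an adjusted p under 0.05 (0.0% of all tested genes), and 1 had an unadjusted p under 0.05 (3.99% of all tested genes). This was Cdk1, lower in males by -2.09 ± 0.96 (limma estimate ± SE, unadjusted p = 0.0497, adjusted p = 0.953), with the values given above. Of the 35 members 18 were higher in males (51.5% of all tested genes). The smallest limma adjusted p between the sexes over all tested genes was 0.152. No check of the sex labels by sex-linked genes is given here, so splits by sex rest on the labels alone. The genotype difference was also compared between the sexes, with all 8 libraries only. In this limma fit 0 members passed (0.0% of all tested genes) and 1 had an unadjusted p under 0.05 (3.19% of all). For Aurkb, FFC was above FF in males and below it in females, with an unadjusted limma p of 0.0461 and an adjusted p of 1.00.

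Other genes of the same machinery were read from lists that hold none of the members. Of 49 measured genes of replication and S phase 22 were higher and 27 lower in FFC (median -0.05), and 0 of the 43 tested were called by limma, with 2 higher and 1 lower at an unadjusted p under 0.05 (6.98%, close to the 6.46% of all tested genes). Rpa3, a subunit of the single-strand binding protein, measured 2.03, 0.344 and 6.57 FPKM in FF libraries 1 to 3, was listed at 0 in FF 4, and measured 10.2, 3.62, 46.9 and 10.3 in the FFC libraries. Gins4, part of the active helicase, measured 8.53, 0.153, 1.24 and 7.20 FPKM in the FF libraries, and 4.61, 12.5, 28.95 and 85.1 in the FFC libraries. Brca1, of homologous recombination, measured 3.00, 5.40, 3.16 and 10.7 FPKM in the FF libraries, and 0.431, 0.0817, 1.67 and 1.54 in the FFC libraries. It was the only tested gene of this list whose genotypes did not overlap in either direction (2.33%). Of all tested genes 3.05% had every FFC library above every FF library and 1.29% had every one below, so this list held no excess. Timeless, of the fork protection complex, measured 63.9, 0.132, 1.64 and 74.3 FPKM in the FF libraries, and 2.17, 0.0276, 0.934 and 0.526 in the FFC libraries. The differences were 2.46, 2.48, -1.72 and -2.64, with adjusted p of 0.712, 0.729, 0.759 and 0.759 in limma.

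Of 72 other genes of G2 and mitosis 41 were higher and 31 lower in FFC (median 0.10, negative with upper-quartile scaling, with quantile normalization and in 3 settings that left out libraries). Of the 52 tested, 0 were called by limma, with 0 at an unadjusted p under 0.05 (6.46% of all tested genes). The smallest p-values belonged to Cdca3 (difference 1.87), the phosphatase gene Cdc25b (-2.04), Depdc1a (1.52) and the condensin gene Smc2 (1.44), each with an adjusted p of 0.759. Cdc25b measured 44.2 FPKM in FF 3 and at most 5.16 elsewhere.

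Of 34 genes for cyclin-dependent kinases, their inhibitors and the Rb-E2F switch 23 were higher and 11 lower in FFC (median 0.24). Of all tested genes 56.7% were higher, with a median of 0.19. The list had 19 higher and 15 lower without FF 2 and FF 4 (median 0.11), and 19 and 15 with upper-quartile scaling (median 0.074). Of the 28 tested, 0 were called by limma and 1 had an unadjusted p under 0.05 (3.57%, against 6.46% of all tested genes). This was Cdkn1a, which encodes the inhibitor p21 and responds to p53 (mm9 chr17:29227924-29237667). It measured 10.3, 0.856, 2.35 and 0.300 FPKM in the FF libraries, and 57.3, 87.0, 6.61 and 151 in the FFC libraries. FFC 3 lay below FF 1, and the other 3 FFC libraries lay above all FF libraries. The log2 difference was 4.00 ± 1.01 (limma estimate ± SE, unadjusted p = 0.00158, adjusted p = 0.534), 3.00 without FF 2 and FF 4, and between 2.88 and 4.89 over the settings tried, where the adjusted p was at least 0.350.

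The genes with the next smallest p-values in this list were the antiproliferative genes Btg1 (difference 1.69) and Btg2 (1.64) and the p53 inhibitor Mdm2 (1.26), each with an adjusted p of 0.759. Mdm2 measured 18.3, 9.11, 35.6 and 26.9 FPKM in the FF libraries, and 52.4, 31.5, 78.9 and 46.0 in the FFC libraries. Only FF 3 exceeded an FFC library.

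Some other cell types in the sort can cycle or carry cell cycle transcripts, and in bulk RNA a difference in the number of such cells and in RNA per cell cannot be told apart. Summed FPKM of 8 neutrophil markers was 193 to 2456 in FF and 3.17 to 956 in FFC, with Elane at 0 in 6 libraries. Ly6g went the other way, at 0 in every FF library and in FFC 1, and at 16.8, 132 and 60.8 FPKM in FFC 2 to FFC 4. Summed FPKM of 10 T and NK cell markers was 34.2 to 469 in FF and 14.6 to 50.8 in FFC. For 8 erythroid markers it was 66.9 to 242 in FF and 33.8 to 64.1 in FFC. For 8 markers of oligodendrocyte precursors, dividing glia of the optic nerve, it was 5.71 to 40.7 in FF and 2.21 to 5.37 in FFC, with 0 of the 8 higher in FFC. Each high FF sum came mostly from 1 gene: Olig2 with 30.7 FPKM in FF 1, Lhfpl3 with 33.4 in FF 3 and at 0 in most libraries, and Vcan, also a monocyte marker, with 20.98 in FF 4. The highest neutrophil, T and NK cell and erythroid sums were all in FF 1, the library with the largest summed FPKM (700291). Its S100a9 was at 1126 FPKM, Trac at 327 and Hbb-b1 at 103. FF 1 also held the highest value of 8 members, Mki67 and Top2a among them, as did FF 2 and FF 4 for 8 others each. Sums for B cell, monocyte and oligodendrocyte markers overlapped between the genotypes, as did those of neutrophils and of T and NK cells: 6.64 to 83.8 in FF and 25.5 to 80.7 in FFC for 5 B cell markers, 15.6 to 100.1 and 37.7 to 99.6 for 6 monocyte markers, and 11.7 to 41.8 and 10.3 to 50.5 for 6 oligodendrocyte markers. Endothelial sums were 20.8 to 45.1 in FF and 8.58 to 30.6 in FFC. Those of mural cells and fibroblasts were 8.13 to 86.9 and 5.37 to 17.3, and those of 9 astrocyte markers 116 to 321 and 91.7 to 188. Of these 9, 3 were higher in FFC. Slc1a3 measured 49.7 to 192 FPKM over the 8 libraries and Slc1a2 reached 24.1 in FF 2. Gfap, Aqp4 and S100b reached at most 1.03, 2.01 and 0.400 FPKM. Clu lay between 23.4 and 127 FPKM in FF and between 0.0124 and 3.45 in FFC. The part of these cell types in the values of the cell cycle genes was not tested.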

How the data were processed

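RNA-seq of 8 libraries, 4 FF and 4 FFC, was analysed from 1 table. The authors deposited FPKM per gene; the submitters' processing notes list, without role or order, the tools Cufflinks 2.0.2, Bowtie2 2.0.0, TopHat2 2.0.4 and CASAVA 1.8.2 and the build mm9. The sources used here give no annotation or settings. FPKM hold no counts, so depth is unknown and values carry no counting interval. Left out were 447 genes lacking a value in some library. File positions count starts from 0 and are printed from 1; promoters come from another build and were matched by symbol only.

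Values were used as log2(FPKM + 1), and 17753 genes averaging at least 1 FPKM were tested. Tests were limma 3.58.1 in R 4.3.3 (two-sided, trended empirical Bayes, Benjamini-Hochberg over all genes tested, threshold 0.05) and exact permutation tests (scipy 1.17.1). The fit was tested on simulated data. Alternatives changed the pseudocount, filter, scaling, variance model, covariates, replicate block, symbol handling and libraries. Leaving out FF 2 and FF 4 was in the list of alternatives because these libraries were known to stand apart, and group means restricted to tested members were added later. The members and lists were chosen with earlier results of these data known.

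Values in every library are given for the D-type cyclins, for members without overlap or with an unadjusted p under 0.05, and for the 8 S phase and 8 mitotic members with the highest mean FPKM. From each other list the 4 tested genes with the smallest p are named. Single values beyond these, among them Cdc45, Rrm2, Ccne2, E2f1, Birc5 and Aurka, were chosen after their values were seen.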

Additional observations from a re-analysis of the deposited data

Results flagged for a closer look

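Within each genotype, 1 library set apart from the other 3 was looked for on the log2(FPKM + 1) scale. This was done for each of the 40 measured members and for the group means. The measure was the gap of a library to its nearest neighbour over the whole range, held against Dixon's critical value for 4 values. Of 88 groups of 4 libraries, 6 were set apart in this way, each by a high library. For independent, normally distributed values chance gives this in about 1 in 20 groups, and no rate was worked out for these values.

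Values of single genes are printed here in FPKM, a scale on which other groups can also look set apart. Top2a in FF, at 102 FPKM in FF 1 and at most 7.53 in the other FF libraries, was not flagged on the log2 scale. Tyms was at 64.9 FPKM in FFC 1, with the other FFC libraries between 3.03 and 4.40. Rrm1 was at 11.0 FPKM in FF 1, with the others between 1.43 and 1.76. Birc5 was at 11.8 FPKM in FFC 3, with the others between 0.0104 and 0.432. Cdc45 was at 1.60 FPKM in FF 2, with the others between 0.0994 and 0.232. Ccnd2 was at 3.13 FPKM in FF 3, with the others between 0.217 and 0.327. The mean log2(FPKM + 1) of the 3 D-type cyclins was 3.20 in FFC 1, with the others between 1.89 and 2.04, where Ccnd1 was at 85.3 FPKM. The single genes are 3 of replication or its nucleotide supply, 1 of mitosis and 1 D-type cyclin, and the 6 values fell in 5 libraries.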

How the results depend on the processing

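Read depth is unknown, and 4 libraries a genotype limit the precision. Between FFC and FF no member was called in any of 21 other settings (smallest limma adjusted p 0.555), and 20 of 35 tested members kept the sign of their difference in all of them. Several settings, among them robust variances, sex as a covariate and a replicate block, leave the differences unchanged by construction, so they are no check of a sign. Genes called ran from 0 to 1 when single libraries were left out: 1 (Mir15a) without FF 1 and 1 (SNORA65) without FFC 4. Between the sexes they ran from 0 to 3: 2 without FF 2, 3 without FF 4, and 4 without both, all clone-named genes. None is a cell cycle gene listed here. The causes were not tested.

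The median of the mitotic members, FFC minus FF, was -0.44 over genes averaging 5 FPKM or more, 0.22 without FF 2 and FF 4, and ran from -0.39 to 0.0070 with single libraries left out. The median of the S phase members, FFC minus FF, was 0.44 with a pseudocount of 0.1, -0.18 at 5 FPKM or more, 0.060 with upper-quartile scaling, 0.024 with month as a covariate, and ran from 0.075 to 0.33 with single libraries left out. The S phase minus mitotic difference was 0.47 with a pseudocount of 0.1, and the median for cyclin-dependent kinases, inhibitors and the Rb-E2F switch was 0.61 at 5 FPKM or more. The filter of 5 FPKM leaves fewer genes, and genes high in 1 genotype only can pass it. A replicate block gave 0 calls between FFC and FF and 1014 genes at an unadjusted p under 0.05, against 1146. Same-numbered libraries did not deviate together (correlations -0.0516 to 0.0344), so the numbers were not taken as a pairing. Between the sexes the block was not run, since the numbers fix the sex.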
